A study of Mus musculus with 6 samples.

Results

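The late change in the small intestine of Fitm2-deleted mice was taken as the difference between 2 arrays, the KO array of day 5 and the KO array of day 3, out of 6 arrays in all. Both arrays were chosen by their labels, and the L/L arrays of the same days were set beside them. L/L is a notation the labels do not spell out, and it commonly stands for alleles flanked by loxP sites. KO mice carried L/L alleles and ROSA26CreERT2, a Cre recombinase that enters the nucleus when tamoxifen is present. Every group, L/L included, belonged to a tamoxifen series of 100 µg per g body weight given into the peritoneum on days 1, 2 and 3. Whole, flushed small intestine was taken on day 2, 3 or 5, and whether the mice of days 2 and 3 got the later doses is not stated. The ROSA26 promoter is active in nearly all cell types, so the deletion was not restricted to the epithelium. L/L mice had no CreERT2, so effects of active Cre and of the lost gene cannot be told apart. Each array held pooled RNA, from 6 KO and 6 L/L mice on day 3 and from 7 KO and 8 L/L mice on day 5. The pools of day 2 held 7 KO and 6 L/L mice. No source used here gives strain, age or sex.

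Fitm2 (FIT2) encodes a protein of the endoplasmic reticulum that takes part in storing fat in lipid droplets. Absorptive cells of the small intestine package dietary fat, and they are replaced within days from stem cells in the crypts. Enterocytes and Paneth cells also secrete lectins and other antibacterial proteins into the lumen. After injury the epithelium passes through a regenerating state in which crypt cells divide, stem cell genes are lost and later recovered, and genes such as Anxa1, Ly6d and Clu are switched on.

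The deposited values were intensities on a linear scale, and each gene was read from its brightest probe set. Changes are differences of log2 intensity, so 1 is a doubling. Of 18193 genes, 13042 lay above an intensity threshold of 38.9 in the mean of the arrays. The median intensity of the KO arrays was 58.6 on day 3 and 59.8 on day 5. With 1 array per group, no change within KO and no difference between the KO and L/L changes can be tested, and the number of arrays limits the precision of every value. Only a change common to both genotypes has a test, given at the end. Vil1, Cdh1, Cdx1 and Cdx2, which mark intestinal epithelium, were well above the threshold on all arrays, with KO changes of -0.11, 0.37, -0.23 and -0.28 in that order and L/L changes of -0.02, 0.27, -0.13 and -0.64. The colon markers Car1 and Aqp8 were below it on all arrays. Because whole intestine was measured, fewer cells of a type and less RNA per cell cannot be told apart.

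More genes differed between days 3 and 5 in KO than in L/L. In KO, 59 genes were at least 2-fold higher on day 5 (0.452% of 13042) and 63 were at least 2-fold lower (0.483%). In L/L, 6 were higher (0.046%) and 15 were lower (0.115%). When a gene's probe sets were averaged, or with 32 added to each intensity, the higher KO genes numbered 31, and with the latter the lower ones 40. The preceding interval within KO, day 3 against day 2, shares the day 3 array and had 18 higher genes (0.138%) and 12 lower ones (0.092%). The median size of the change over all genes was 0.142 in KO and 0.123 in L/L, so the genotypes differed more in their extremes than in the bulk. Synm was the only gene at least 2-fold higher in both genotypes, 1.69% of the KO list and 16.7% of the L/L list. A dimmer Synm probe set gave 0.83 in KO and 0.51 in L/L, below 2-fold in both. Mcpt2 and Pla2g2a were 2-fold lower in both, 3.17% of the lower genes in KO and 13.3% of those in L/L. With 32 added to each intensity the KO change of Mcpt2 was -0.61, and with intensities raised to the threshold it was -0.49. Over the 13042 genes, which are not independent replicates, the KO and L/L changes had a Pearson r of 0.36 and a Spearman rho of 0.40. The KO change exceeded the L/L change by 1 or more in 72 genes (0.552%) and fell short of it by 1 or more in 54 (0.414%).

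**Figure D1:**
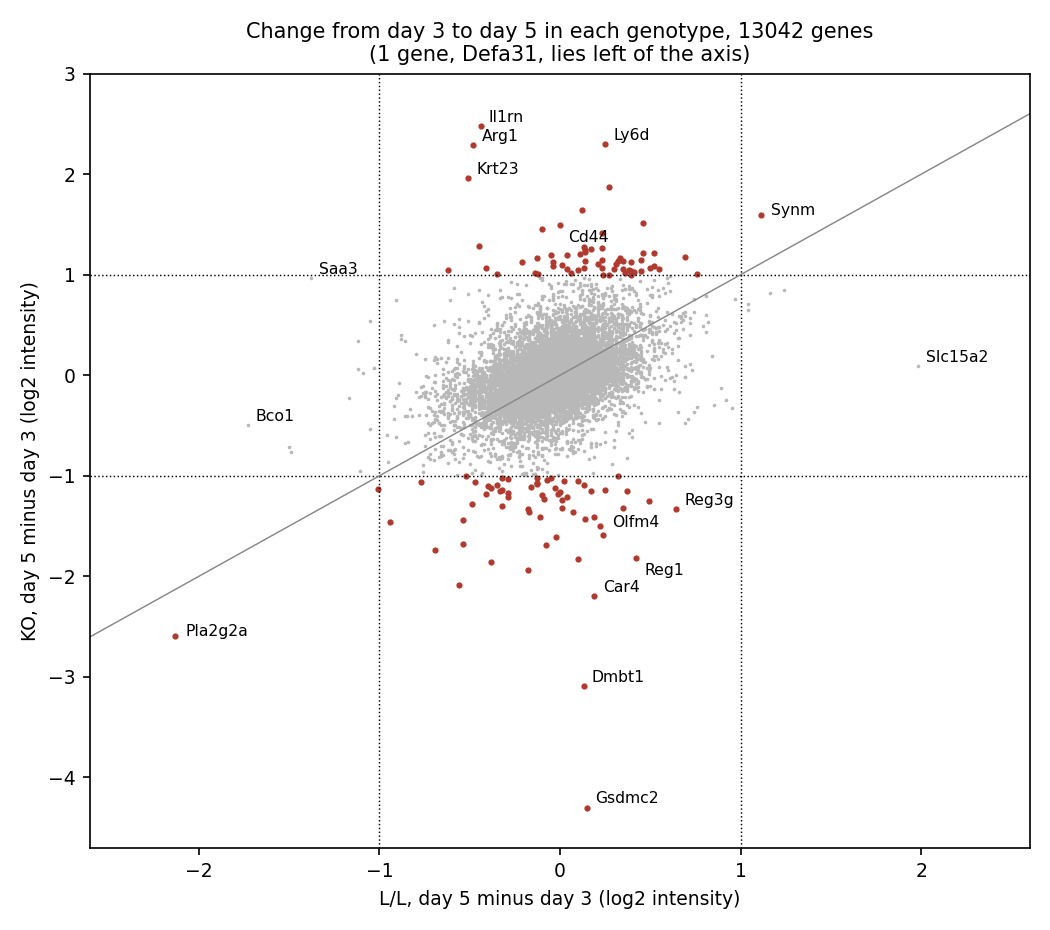
Change in log2 intensity from day 3 to day 5 of each of 13042 genes in L/L (horizontal axis) and in KO (vertical axis). Red points are the 122 genes at least 2-fold different in KO, dotted lines mark 2-fold, and the grey diagonal marks equal change. Gsdmc2, Dmbt1 and Car4 lie far below 0 in KO and near 0 in L/L, Il1rn, Ly6d, Arg1 and Krt23 lie far above it, and Pla2g2a and Synm lie in the same direction in both.

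In most of the 122 genes the KO day 5 array stood apart from all others. It was the brightest of the 6 arrays for 56 of the 59 higher genes, where Kdm5d, Ttc14 and Uty were the exceptions, and the dimmest for 59 of the 63 lower genes, where Hes2, Pla2g2a, Ubd and Xist were. The KO day 5 array was the brightest for 27% and the dimmest for 25.3% of all 13042 genes. The choice of genes by the same array raises those counts. For 14 of the 122 genes the dimmer array lay below the intensity threshold, and with such values raised to it 58 higher and 56 lower genes remained at 2-fold.

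The lowest gene in KO was Gsdmc2, a member of the gasdermin family of membrane pore formers. On days 2, 3 and 5 its intensity was 402, 111 and 5.66 in KO, the last below the threshold. In L/L it was 276, 1176 and 1303. The measured KO change was -4.30, which counts as at least 2.86-fold lower because day 5 has only a bound, against 0.15 in L/L. Each later day was lower in KO and higher in L/L, and KO was already the dimmer on day 3. Gsdmd, Gsdma2 and Gsdme, the other gasdermins above the threshold, differed by -0.27, -0.13 and 0.20 in KO, and Gsdma2 by 0.30, with the sign turned, when probe sets that can bind several transcripts were left out. Of 10 listed gasdermins only 5 were measured on the array. The values therefore do not show whether the change was particular to Gsdmc2 within the family.

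Dmbt1, a secreted scavenger receptor that binds bacteria at mucosal surfaces, had intensities of 5212, 4131 and 485 in KO on days 2, 3 and 5, and of 6568, 6767 and 7388 in L/L. It was 8.52-fold lower on KO day 5 than on day 3 (-3.09), with a change of 0.13 in L/L. Its 3 L/L values lay close together, and nearly all of the KO difference arose after day 3. Car4, a carbonic anhydrase anchored on the cell surface, was at 434, 335 and 73 in KO and at 484, 1188 and 1356 in L/L. The KO change was -2.20 and the L/L change 0.19, and a dimmer Car4 probe set gave -1.49 and 0.49. As with Gsdmc2, L/L was higher and KO lower on days 3 and 5 than on day 2. Pla2g2a, a secreted antibacterial phospholipase of Paneth cells, differed by -2.59 in KO and by -2.13 in L/L, with intensities of 569, 1382 and 230 in KO and 1397, 478 and 109 in L/L. Its day 5 value was low in both genotypes.

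**Figure D2:**
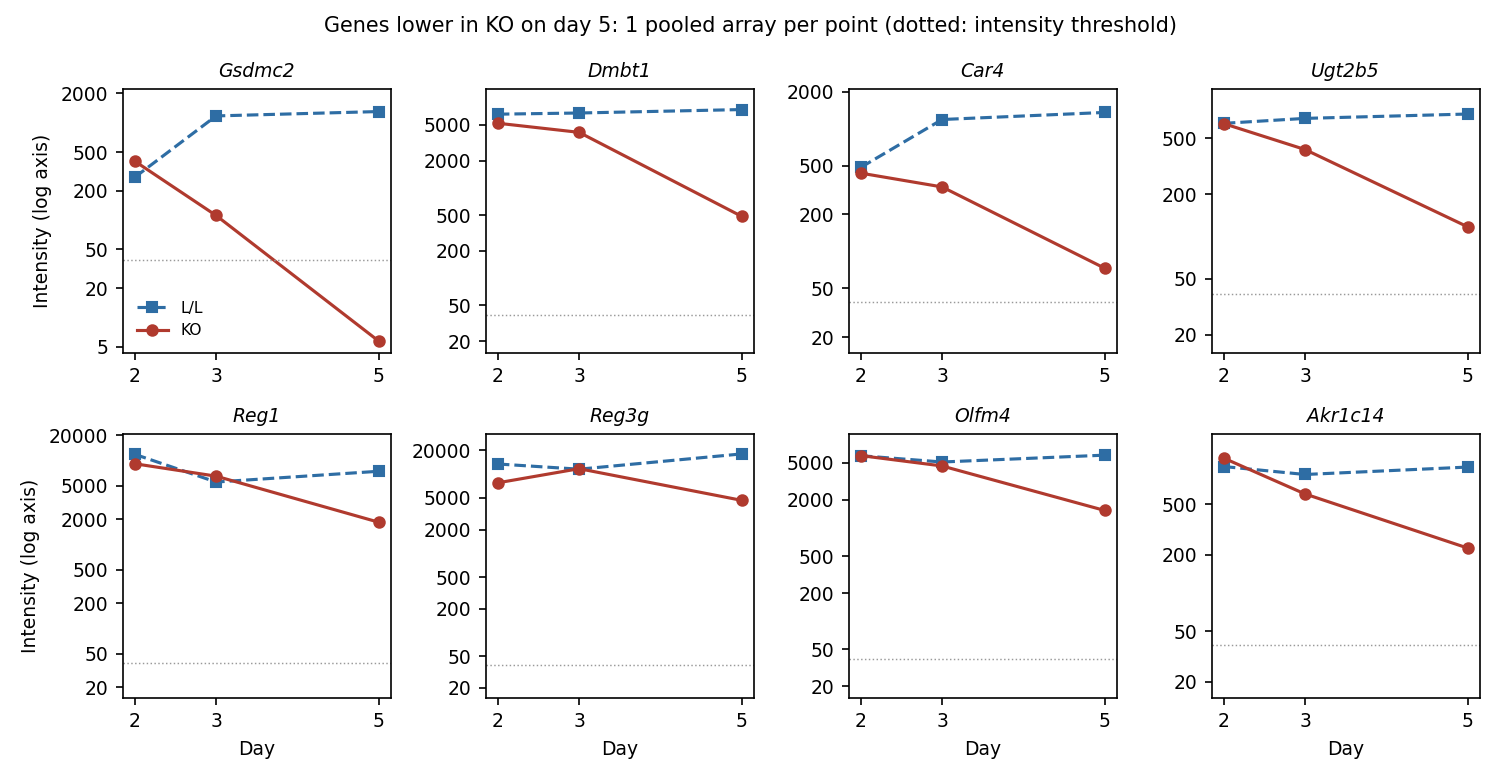
Intensity (log axis) on days 2, 3 and 5 of 8 genes that were at least 2-fold lower on KO day 5 than on KO day 3; red circles are KO, blue squares L/L, each 1 pooled array, and the dotted line is the intensity threshold of 38.9. KO and L/L lie within 2-fold of each other on day 2 and further apart on day 5, where Dmbt1 was at 485 in KO and 7388 in L/L.

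The Reg lectins, C-type lectins of which Reg3b and Reg3g act on bacteria in the gut lumen, were lower together in KO and higher in L/L. Of 7 members above the threshold, 6 were below 0 in KO and 4 were at least 2-fold lower, with a median of -1.15. In L/L 5 of the 7 were above 0, with a median of 0.34. The medians over all genes were -0.01 and -0.03. Reg1 was at 9116, 6491 and 1840 in KO and at 11798, 5528 and 7422 in L/L (KO -1.82, L/L 0.42). Reg3g was at 7771, 11717 and 4671 in KO and at 13432, 11548 and 18000 in L/L (KO -1.33, L/L 0.64). For Reg3g the genotypes were nearly equal on day 3, while KO was the dimmer on days 2 and 5, by -0.79 and -1.95. Reg3b was at 14622, 17205 and 7730 in KO and at 20724, 17490 and 22652 in L/L (KO -1.15, L/L 0.37). A dimmer probe set of Reg3b gave -0.64 and 0.48, which is below 2-fold. Reg3a differed by -1.61 in KO and -0.02 in L/L, from 1384 to 455 and from 1880 to 1851. Reg4, which is made by enteroendocrine and goblet cells, differed from these with 0.43 in KO and -0.43 in L/L. Reg genes are close copies of each other, so probe sets may read more than 1 of them.

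These 4 Reg genes, which were lower together on KO day 5, lie close together on mouse chromosome 6. The 150 bases before each annotated start are given from RefSeq on GRCm38.p6, written 5′ to 3′ on the gene's own strand, to show what the neighbouring promoters share. Capitals mark matches to TATAAA (the TATA box), TGANTCA (the AP-1 site) and TTCNNNGAA (the STAT site), searched on both strands.
Reg1, chr6:78425833-78425982 (plus strand): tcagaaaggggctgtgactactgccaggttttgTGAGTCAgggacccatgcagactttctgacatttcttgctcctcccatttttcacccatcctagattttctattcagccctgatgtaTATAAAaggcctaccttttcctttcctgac
Reg3a, chr6:78380559-78380708 (plus strand): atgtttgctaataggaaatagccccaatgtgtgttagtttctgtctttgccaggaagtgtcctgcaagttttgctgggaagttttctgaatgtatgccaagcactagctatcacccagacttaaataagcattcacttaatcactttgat
Reg3b, chr6:78370735-78370884 (plus strand): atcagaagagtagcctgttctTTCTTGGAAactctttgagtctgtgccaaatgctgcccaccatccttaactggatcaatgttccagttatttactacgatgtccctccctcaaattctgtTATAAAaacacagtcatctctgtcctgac
Reg3g, chr6:78468875-78469024 (minus strand): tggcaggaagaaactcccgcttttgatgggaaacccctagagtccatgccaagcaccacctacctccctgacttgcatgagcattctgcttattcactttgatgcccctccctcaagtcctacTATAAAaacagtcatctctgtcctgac
Reg1, Reg3b and Reg3g carry TATAAA at 30, 29 and 27 bases before the start, and Reg3a has no match to the 3 motifs in its window. The AP-1 match of Reg1 lies 117 bases and the STAT match of Reg3b 129 bases before the start. In the last 30 bases Reg3b and Reg3g are identical at 26 positions, while the other pairs of the 4 genes are identical at 11 to 16. Bases were paired by distance from the annotated start, without gaps. The Reg3a window ends in letters (tcactttgat) that Reg3g carries further from its start, ahead of its TATAAA. The counts with Reg3a may therefore pair stretches that do not correspond, and do not show that its promoter is unlike the others. Windows of 300 bases, from 250 before to 50 after the start, were found for 43 of the 59 higher and 50 of the 63 lower genes. TATAAA was present in 23.3% of the higher, 20% of the lower, and 7.81% of the 10474 windows of all genes kept. TGANTCA was present in 11.6%, 6% and 5.23%, and TTCNNNGAA in 2.33%, 8% and 6.77%. Among all 27025 promoters of the table the shares were 14.2%, 7.93% and 8.47%. A match is a description of the letters and not evidence of a bound factor.

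Some other mucosal defence genes were also lower on KO day 5. Pigr, the receptor that carries IgA across the epithelium, was at 8980, 8822 and 4284 in KO and at 11059, 9234 and 8809 in L/L (KO -1.04, L/L -0.07), and a dimmer probe set gave -0.68. Ccl28, a chemokine that draws IgA-secreting cells to mucosa, was at 195, 190 and 91.5 in KO and at 210, 232 and 249 in L/L (KO -1.05, L/L 0.10). In these brightest probe sets both were thus low on KO day 5 alone. Dimmer Ccl28 probe sets were lower on day 5 in both genotypes, by -0.47 and -1.43 in KO and -0.53 and -1.65 in L/L. Jchain, the joining chain of secreted IgA, lay the other way, at 465, 547 and 1134 in KO and at 469, 757 and 986 in L/L (KO 1.05, L/L 0.38). In the list of inflammation and antimicrobial genes, 18 of 24 were below 0 in KO and 18 in L/L, with medians of -0.24 and -0.10. In KO 8 were at least 1.5-fold lower and 3 at least 1.5-fold higher, and in L/L 2 and 0. Over all genes 2.95% were 1.5-fold higher and 2.55% lower in KO, and 0.552% and 1.42% in L/L. Saa3, an acute-phase protein, was at 444, 680 and 1332 in KO and at 477, 406 and 157 in L/L, a change of 0.97 against -1.38.

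Several enzymes that modify drugs, steroids and bile acids were lower in KO on day 5. Of 29 conjugating enzymes and esterases, 22 were below 0 in KO and 20 in L/L. In KO 8 were at least 1.5-fold lower, against 1 in L/L, 4 at least 2-fold lower and 0 at least 1.5-fold higher. Their median was -0.35 in KO and -0.08 in L/L. Ugt2b5, a glucuronosyltransferase, was at 636, 416 and 118 in KO and at 639, 693 and 745 in L/L (KO -1.83, L/L 0.10), and its relative Ugt2b36 differed by -1.14 and 0.25. Gstm3, a glutathione transferase, was at 3904, 3676 and 1145 in KO and at 3349, 3793 and 2614 in L/L (KO -1.68, L/L -0.54). A dimmer Gstm3 probe set gave -1.39 in KO and -1.23 in L/L, so the gap between the genotypes depends on the probe set. Ces1e, a carboxylesterase, had its day 5 value of 25 below the threshold and was at least 2.07-fold lower. Sequence similarity within the Ugt, Gst and Ces families means that a probe set may read more than 1 member.

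The oxidising enzymes were mixed. Cyp2b10, a cytochrome P450 induced through the xenobiotic receptor CAR, was at 2713, 2086 and 625 in KO and at 2683, 1877 and 1163 in L/L (KO -1.74, L/L -0.69). Akr1c14, a hydroxysteroid dehydrogenase, was at 1156, 604 and 227 in KO and between 860 and 993 in L/L (KO -1.41). Cyp2c29 and Cyp2c55, by contrast, were above 2-fold in the other direction. Cyp2c29 was at 270, 198 and 617 in KO and between 189 and 221 in L/L (KO 1.64, L/L 0.12). Cyp2c55 was at 160, 219 and 512 in KO and at 168, 252 and 278 in L/L (KO 1.23, L/L 0.14). Over the 25 phase 1 enzymes the median was -0.20 in KO and -0.02 in L/L, with 3 at least 1.5-fold higher and 4 at least 1.5-fold lower.

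Single genes of hormone, sugar and vitamin handling belonged to the lowest as well. G6pc, the catalytic subunit of glucose-6-phosphatase, was at 549, 354 and 83 in KO and at 443, 252 and 171 in L/L (KO -2.09, L/L -0.56). Dio1, which activates thyroid hormone, was at 335, 279 and 76.6 in KO and at 621, 348 and 267 in L/L (KO -1.86, L/L -0.38). Both were lower on later days in both genotypes, and further so in KO. Rdh7, a retinol dehydrogenase, went from 2549 to 1024 in KO (-1.32) and from 3083 to 3098 in L/L. Cubn, the receptor for vitamin B12 bound to intrinsic factor, went from 5256 to 2410 in KO (-1.12) and from 5991 to 4595 in L/L (-0.38).

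Nutrient and ion transporters were below 0 in KO in 24 of 33 cases, with a median of -0.23, and in 15 in L/L, with a median of 0.03. In KO 5 were at least 1.5-fold lower. Slc1a1, a glutamate and aspartate transporter, was at 392, 247 and 107 in KO and at 388, 546 and 561 in L/L (KO -1.21, L/L 0.04), and its other probe sets gave -2.04 and -1.42. Slc5a4b differed by -0.93 and -0.10. The bile acid exporters Slc51a and Slc51b differed by -0.62 and -0.73 in KO and by -0.13 and 0.05 in L/L, and Nr1h4, the bile acid receptor FXR, by -0.76 and 0.08. Slc10a2, the ileal bile acid importer, was higher in both genotypes (0.71 and 1.04). Enterocyte brush border genes as a group were level, with a median of -0.09 in KO and -0.08 in L/L and 0 of 24 at least 1.5-fold lower. Markers of the distal small intestine, which include Reg3b and Reg3g, had a median of -0.35 in KO and -0.10 in L/L (17 genes), and those of the proximal part -0.07 and -0.09 (18 genes). The part of differences in sampled region in these values was not tested.

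Mitochondrial genes were lower by small amounts and nearly without exception. Of 30 oxidative phosphorylation genes 29 were below 0 in KO and 18 in L/L, with medians of -0.33 and -0.03. The 14 genes of the citric acid cycle and pyruvate oxidation had a median of -0.36 against -0.03, with 13 and 9 below 0, and the 25 of fatty acid oxidation had -0.31 against -0.01, with 23 and 14 below 0. Over all genes 52.6% were below and 47.4% above 0 in KO, and 57.8% below and 42.1% above 0 in L/L. At 1.5-fold, 2, 3 and 4 members of these lists were lower. Sdha, a subunit of succinate dehydrogenase, was at 3780, 3806 and 2385 in KO and at 4142, 4133 and 3477 in L/L (KO -0.67, L/L -0.25). Dlat, the acetyltransferase of pyruvate dehydrogenase, was at 822, 785 and 482 in KO and at 776, 847 and 971 in L/L (KO -0.70, L/L 0.20). Acadm, which oxidises medium-chain fatty acids, was at 2847, 2584 and 1630 in KO and at 2840, 2886 and 3112 in L/L (KO -0.67, L/L 0.11). In each of these the KO values of days 2 and 3 were close and the day 5 value was apart. Genes of glycolysis and the hypoxia response were below 0 in both genotypes, in 19 of 22 cases in KO (median -0.33) and 20 in L/L (median -0.16), and the median of their differences between the genotypes was -0.07. Among them were Pgam1 (-0.72) and Pfkl (-0.86). When probe sets that can bind several transcripts were left out, the KO change of Pfkl was -0.08.

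Stem cell genes were mixed and cell cycle genes were lower. Olfm4, an abundant product of crypt stem cells, was at 5992, 4639 and 1545 in KO and at 5977, 5115 and 6061 in L/L, 3.00-fold lower within KO (-1.59) against 0.24. Lgr5, the receptor that defines these cells, was at 198, 189 and 150 in KO and at 207, 196 and 191 in L/L (KO -0.33). Cd44, the hyaluronan receptor of crypt cells, was the opposite, at 402, 551 and 1552 in KO and at 283, 411 and 412 in L/L (KO 1.49, L/L 0.00), and its other probe sets gave 1.53 and 0.78. Sox9, a transcription factor of stem and Paneth cells, was at 94.2, 124 and 296 in KO and between 87.8 and 110 in L/L (KO 1.26), and a dimmer probe set gave 0.64. Rnf43, which lowers Wnt receptors, differed by 0.91 in KO and -0.24 in L/L. The median of the 17 genes was 0.05 in KO and 0.01 in L/L, with 9 above 0 and 8 below.

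Genes of mitosis were below 0 in KO in all 27 cases and in L/L in 18, with medians of -0.36 and -0.03, and 4 of them were at least 1.5-fold lower in KO. Ccnb2, a cyclin of mitotic entry, was at 336, 334 and 179 in KO and at 354, 454 and 376 in L/L (KO -0.90, L/L -0.27). Bub1b, a spindle checkpoint kinase, was at 183, 192 and 103 in KO and at 191, 182 and 158 in L/L (KO -0.90, L/L -0.21). Mki67 differed by -0.44 and -0.01 and Top2a by -0.57 and -0.02. DNA replication genes were below 0 in 26 of 28 cases in KO and in 19 in L/L, with smaller medians of -0.20 and -0.05. Tk1, the thymidine kinase of S phase, was the exception in size, at 279, 256 and 123 in KO and at 335, 364 and 263 in L/L (KO -1.06, L/L -0.47).

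**Figure D3:**
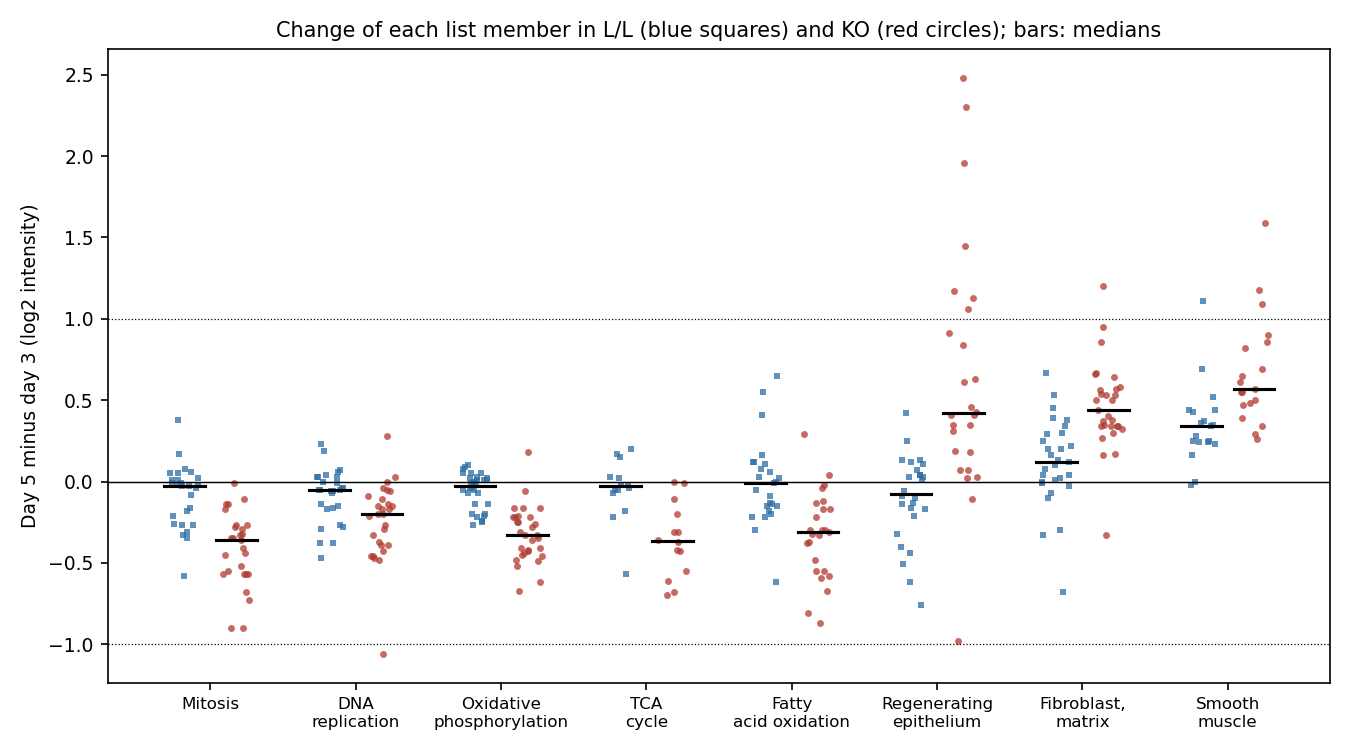
Change in log2 intensity from day 3 to day 5 of each member of 8 gene lists, in L/L (blue squares) and KO (red circles); black bars are medians and dotted lines mark 2-fold. The KO points of the mitosis list all lie at or below 0 around a median of -0.36 and those of the smooth muscle list all above 0 around 0.57, and the L/L medians are -0.03 and 0.34.

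Genes known from regenerating epithelium and the YAP response were higher on KO day 5. Of 26 members 24 were above 0 in KO, 11 were at least 1.5-fold and 7 at least 2-fold higher, and 1 was 1.5-fold lower. The median was 0.42 in KO and -0.08 in L/L, where 12 were above 0. Members of this list, as of the others, were chosen with earlier results of these data known. These counts and medians are therefore not independent of those results. Il1rn, the antagonist of the interleukin 1 receptor, was at 34.7, 45.7 and 255 in KO, and in L/L it was below the threshold on all days, at 28.9, 29.7 and 21.8. It was 5.58-fold higher on KO day 5 than on day 3 (2.48), the highest value of all named genes. Ly6d, a surface protein of the Ly6 family, was at 80.2, 82.7 and 407 in KO and between 63.7 and 75.8 in L/L (KO 2.30, L/L 0.25). Krt23, a keratin, was at 48.3, 70 and 272 in KO and at 56.3, 61.5 and 43.2 in L/L (KO 1.96, L/L -0.51). In these 3 genes the L/L values spanned less than the KO step from day 3 to day 5, and no L/L array came near KO day 5.

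Brighter members of the list behaved alike. Anxa1, a phospholipid-binding annexin, was at 440, 447 and 1223 in KO and at 457, 457 and 425 in L/L (KO 1.45, L/L -0.10), with a KO change of 0.85 when its probe sets were averaged. Anxa3 was at 222, 269 and 606 in KO and between 199 and 240 in L/L (KO 1.17, L/L -0.13). S100a6, a calcium-binding protein, was at 1951, 2804 and 6125 in KO and at 1779, 2329 and 2009 in L/L (KO 1.13, L/L -0.21). Sprr1a, a cornified envelope protein placed in the same list, was the opposite, at 78.6, 227 and 115 in KO and 63.7, 216 and 196 in L/L (KO -0.98, L/L -0.14). It was high on day 3 in both genotypes.

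**Figure D4:**
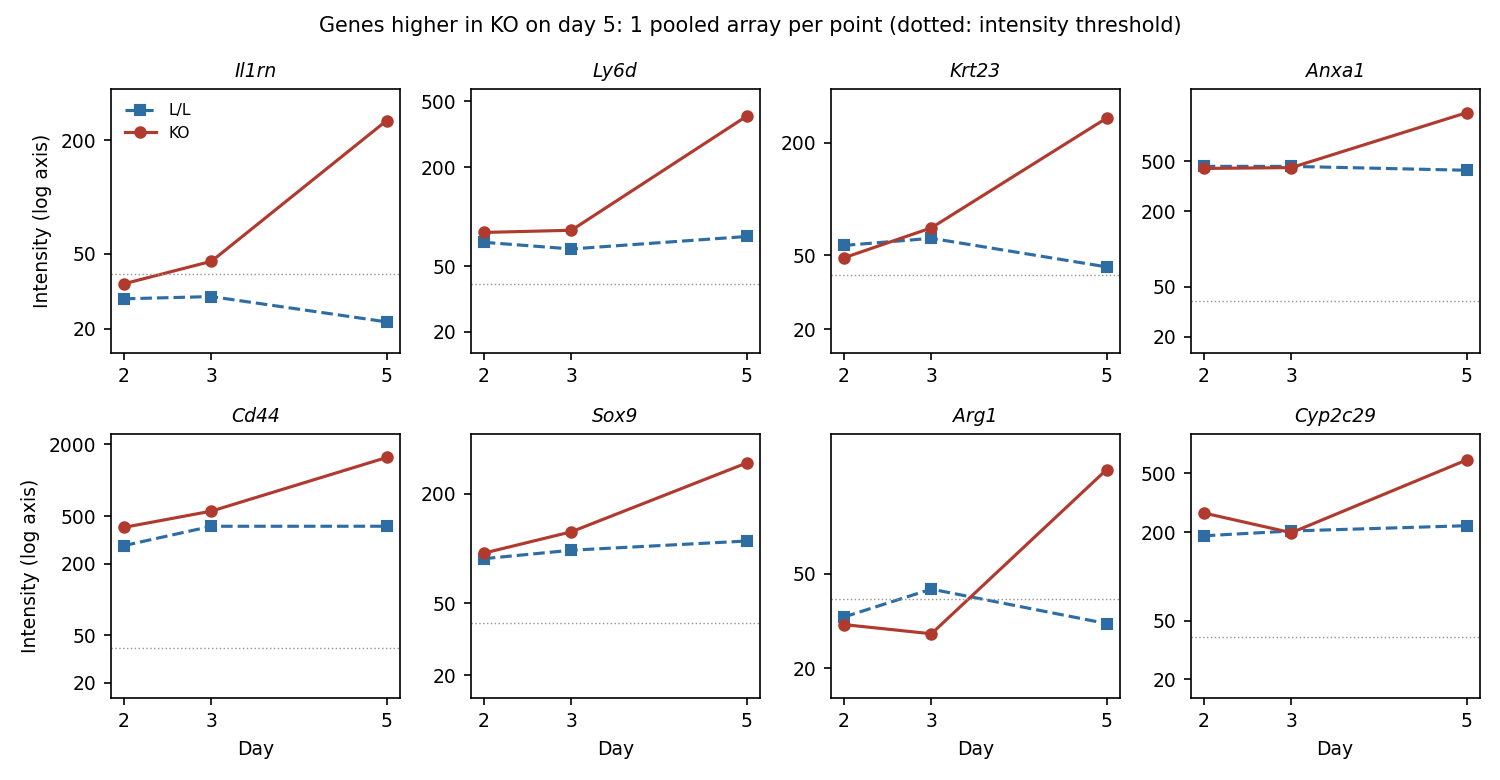
Intensity (log axis) on days 2, 3 and 5 of 8 genes that were at least 2-fold higher on KO day 5 than on KO day 3; symbols as in the plot of the lower genes. The KO points of days 2 and 3 lie near the L/L points and the KO day 5 point lies above all others, as for Anxa1 at 1223 against 425 to 457 in L/L.

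Among the highest genes outside that list were enzymes and signalling proteins. Arg1, which splits arginine, was below the threshold on KO days 2 and 3, at 30.6 and 28, and at 137 on day 5, so it was at least 3.51-fold higher (measured change 2.29; L/L -0.48, between 30.9 and 43). Sptssb, a small subunit of serine palmitoyltransferase, the first enzyme of sphingolipid synthesis, was at 61.6, 47.6 and 174 in KO (1.87). In L/L it was at 55.6, 31 and 37.3, on days 3 and 5 below the threshold. Neither size nor direction of its L/L change was thus measured. Ggh, a hydrolase of folate polyglutamates, was at 233, 291 and 775 in KO and between 235 and 276 in L/L (KO 1.41, L/L 0.23). All 3 were brightest on KO day 5. Pmm1, a phosphomannomutase, was at 92.2, 124 and 302 in KO and between 64.7 and 105 in L/L (KO 1.29, L/L -0.45), and a second probe set gave 0.69. Inf2, a formin, differed by 1.28 and 0.13, with 0.69 from a second probe set. Cybrd1, the iron reductase of the brush border, was at 55.2, 62.6 and 134 in KO and between 54.1 and 56.4 in L/L (KO 1.10).

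Stromal genes were higher on KO day 5. Of 29 fibroblast and matrix genes 28 were above 0 in KO, with a median of 0.44, and 21 were above 0 in L/L, with a median of 0.12. Grem1, a BMP antagonist made below the crypts, was at 390, 494 and 1188 in KO and at 404, 440 and 515 in L/L (KO 1.27, L/L 0.23). Pdgfra, a receptor of subepithelial fibroblasts, was at 700, 714 and 1635 in KO and between 630 and 662 in L/L (KO 1.20, L/L 0.04), while its dimmer probe sets gave 0.18 and 0.50. Igfbp5, a binding protein of insulin-like growth factors, was at 344, 339 and 961 in KO and at 324, 246 and 337 in L/L (KO 1.51, L/L 0.46). A dimmer Igfbp5 probe set gave 0.60 in KO and 1.04 in L/L, so the order of the genotypes depends on the probe set.

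Smooth muscle genes were above 0 in all 19 cases in KO, with a median of 0.57, and in 18 in L/L, with a median of 0.34. In KO 9 were at least 1.5-fold higher and in L/L 2. Des, the intermediate filament protein of muscle, was at 1582, 1563 and 2832 in KO and at 1498, 1580 and 2034 in L/L (KO 0.86, L/L 0.36). Synm, a partner of desmin, was at 607, 553 and 1668 in KO and at 628, 744 and 1609 in L/L (KO 1.59, L/L 1.11), so on day 5 the genotypes were nearly equal. Myocd, the cofactor that drives smooth muscle genes, differed by 1.18 and 0.69. The summed intensity of Myh11, Acta2, Actg2 and Des was 15005 on KO day 3, 22938 on KO day 5, 15937 on L/L day 3 and 20372 on L/L day 5. These muscle markers were thus higher on day 5 in both genotypes, and the part of muscle content in the other changes was not tested.

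**Figure D5:**
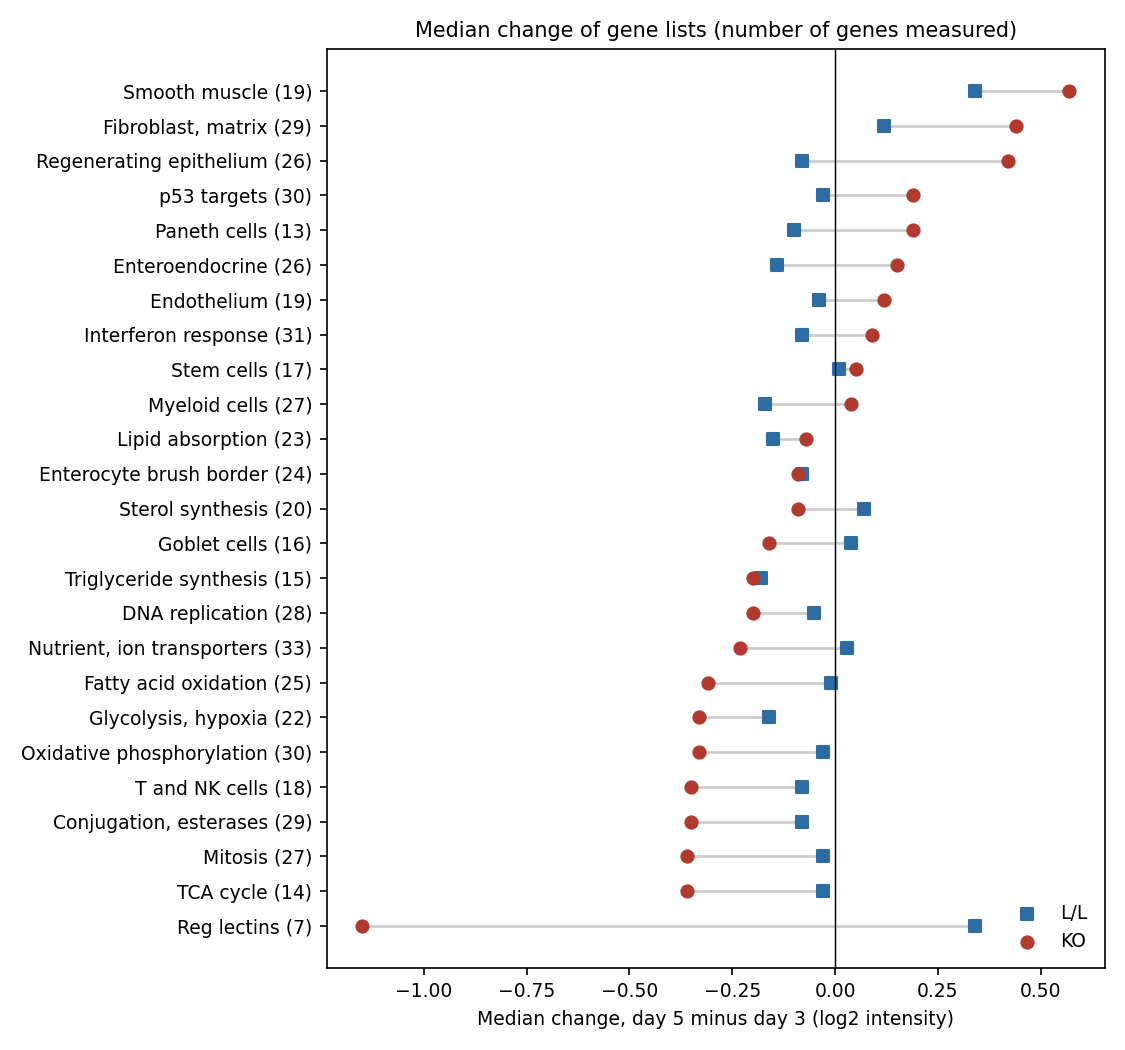
Median change in log2 intensity from day 3 to day 5 of 25 gene lists in L/L (blue squares) and KO (red circles), ordered by the KO median, with the number of genes above the threshold in brackets. The Reg lectins are lowest in KO (-1.15) and higher in L/L (0.34), the mitochondrial and mitosis lists lie between -0.31 and -0.36 in KO, and smooth muscle is highest in KO (0.57).

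Secretory cell lists had smaller medians. Paneth cell genes had a median of 0.19 in KO and -0.10 in L/L, with 9 of 13 above 0 in KO and 1 in L/L. Ang4, an antibacterial ribonuclease, was at 5300, 4804 and 9259 in KO and at 3076, 4730 and 4426 in L/L (KO 0.95, L/L -0.10), while a dimmer probe set gave 0.46 and -0.41. Lyz1 was at 17404, 19659 and 23008 in KO and between 15271 and 16147 in L/L (KO 0.23, and -0.06 when probe sets that can bind several transcripts were left out). Both were brightest on KO day 5. Pnliprp2, a lipase related to pancreatic lipase, went from 1683 to 3876 in KO (1.20) and from 1173 to 1132 in L/L. Enteroendocrine genes had a median of 0.15 in KO and -0.14 in L/L, with Cpe at 0.72 and Nts at 0.67 in KO. Neurog3, the factor that starts that lineage, went the other way, from 91.4 to 41.4 in KO (-1.14) and from 72 to 57.7 in L/L. Goblet cell genes had medians of -0.16 and 0.04, with 0 of 16 past 1.5-fold in KO.

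Immune cell genes were divided. T and NK cell genes were below 0 in KO in 16 of 18 cases (median -0.35) and in L/L in 12 (median -0.08), and Ccl5, a chemokine of cytotoxic T cells, was at 327, 437 and 222 in KO and at 322, 362 and 313 in L/L (-0.98 and -0.21). Myeloid genes had a median of 0.04 in KO, with 17 of 27 above 0, and of -0.17 in L/L, with 24 below 0. The KO change exceeded the L/L change in 26 of the 27 myeloid genes, with a median difference of 0.30. Over all genes it did so in 55.4%, with a median difference of 0.03. Of the myeloid genes, Cd163, a scavenger receptor of resident macrophages, was at 50.6, 63.3 and 141 in KO and at 46.2, 59.5 and 81.2 in L/L (KO 1.15, L/L 0.45). Lyz2 was at 1145, 1315 and 2300 in KO and between 870 and 1062 in L/L (KO 0.81). B and plasma cell genes had a median of 0.28 in KO and 0.01 in L/L, led by Jchain, but the KO median was -0.03 against day 2 in place of day 3. Interferon response genes were nearly level between days 3 and 5, with medians of 0.09 and -0.08.

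Targets of p53, the DNA damage response factor, were above 0 in KO in 22 of 30 cases and in L/L in 12, with medians of 0.19 and -0.03, and 4 were at least 1.5-fold higher in KO. Trp53inp1 was at 676, 838 and 1752 in KO and at 518, 401 and 585 in L/L (KO 1.06, L/L 0.55), and a dimmer probe set gave 0.49. Zmat3 was at 218, 324 and 556 in KO and between 147 and 150 in L/L (KO 0.78, L/L 0.03). Cdkn1a, the cell cycle inhibitor p21, was at 3248, 3650 and 4274 in KO and at 2687, 2777 and 2416 in L/L (KO 0.23). In KO these 3 were higher on each later day, while Sesn1, another target, differed by -0.67.

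Among lists of fat handling, the process in which Fitm2 acts, those of triglyceride synthesis, lipid absorption and lipid droplets had similar medians in both genotypes. Fitm2 itself was at 127 on KO day 3 and 120 on KO day 5, and at 223 and 211 in L/L, a change of -0.08 in both. No source used here says where its probe set lies relative to the deleted part. The 15 genes of triglyceride synthesis had medians of -0.20 in KO and -0.18 in L/L, and Dgat2, which makes triglyceride, differed by -0.50 and -0.58. A dimmer Dgat2 probe set gave -0.58 in KO and -1.43 in L/L, so the likeness of the genotypes depends on the probe set. The 23 genes of lipid absorption and chylomicron assembly had medians of -0.07 and -0.15, and the 23 of lipid droplets and lipolysis -0.02 and -0.10. The KO change exceeded the L/L change in 18 of 23 absorption, 18 of 23 droplet and 9 of 15 triglyceride genes, and in 55.4% of all genes. Sterol synthesis genes had medians of -0.09 in KO and 0.07 in L/L, and in 18 of 20 the KO change was the lower, as in 44.6% of all genes. Cideb, a lipid droplet and lipoprotein factor, differed by -0.52 and -0.55, and Plin2, the droplet coat protein, by 0.01 and -0.23. Ces1f, an esterase counted among the droplet genes, was apart from them at -0.83 in KO and 0.16 in L/L. Scd1, which desaturates fatty acids, went from 121 to 249 in KO (1.04) and from 133 to 174 in L/L (0.39), but its KO change was 0.51 when its probe sets were averaged.

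Transcripts of the sex chromosomes differed along with the KO comparison. Xist, made only from the inactive X, was at 1090, 3030 and 1398 in KO and at 2433, 3126 and 3052 in L/L, a change of -1.12 against -0.03. Its other probe sets gave -0.41 and -0.83 in KO, both under 2-fold, and 0.84 and -0.61 in L/L. The 4 Y-linked genes had a median of 1.05 in KO and 0.46 in L/L, and Eif2s3y was at 497, 273 and 635 in KO. The KO pools of days 3 and 5 therefore differed in these markers, and the part of this in the other changes was not tested. The KO day 2 array resembled day 5 in Xist and Eif2s3y. Set against day 2 in place of day 3, a choice made after the data were seen, 121 genes were at least 2-fold higher on KO day 5 and 107 lower, and these held 44 of the 59 and 55 of the 63. Against that baseline Dmbt1 was at -3.43, Olfm4 at -1.96, Reg1 at -2.31, Il1rn at 2.88, Ly6d at 2.34, Krt23 at 2.49 and Anxa1 at 1.48. Reg3g and Reg3b were at -0.73 and -0.92, below 2-fold. The list medians were -0.32 for mitosis, -0.38 for oxidative phosphorylation and 0.60 for smooth muscle. They were 0.66 for regenerating epithelium, -0.73 for the Reg lectins, -0.10 for DNA replication, -0.19 for T and NK cells and 0.55 for p53 targets, each over 1.5 times from its day 3 value.

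Some of the differences between the KO and L/L changes came from L/L. Defa31, a Paneth cell defensin, was at 10152, 6213 and 35.3 in L/L, the last below the threshold, and at 2772, 8196 and 10116 in KO. Defensin genes are near-identical copies, so this probe set may not stand for the whole family. Slc15a2, a peptide transporter, was at 59, 18.5 and 73 in L/L and between 69.3 and 73.8 in KO, and the low L/L day 3 value lies below the threshold, so its L/L change has no exact size. Bco1, which cleaves carotene, was at 481, 234 and 70.6 in L/L and at 323, 148 and 105 in KO (L/L -1.73, KO -0.50).

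A change from day 3 to day 5 that is common to both genotypes was tested with limma over the 6 arrays, with day as a factor beside genotype. After Benjamini-Hochberg adjustment 0 of 13042 genes passed at 0.05 (0%), the lowest adjusted p was 0.183, and 2215 genes had an unadjusted p under 0.05. The 13 other settings of this fit also gave 0 genes, with 1919 to 2470 at an unadjusted p under 0.05. The 6 genes with the highest moderated t each had a limma adjusted p of 0.183. Synm had a shared change of 1.35 (SE 0.13), Ttc14 0.88 (SE 0.11), Pik3cd, a phosphoinositide kinase of leukocytes, 0.86 (SE 0.09), Vip, a peptide of enteric neurons, 0.80 (SE 0.10), Tmem47 0.70 (SE 0.09) and Nid2, a basement membrane protein, 0.65 (SE 0.07). The KO change of some of them depended on the probe sets used. That of Pik3cd was 0.76, and 0.04 when its probe sets were averaged. That of Ttc14 was 1.01, and 0.34 when probe sets that can bind several transcripts were left out. That of Tmem47 was 0.60, and 0.37 when its probe sets were averaged. The 6 genes with the lowest moderated t had the same limma adjusted p of 0.183. Vps33b, a protein of vesicle trafficking, had -0.90 (SE 0.08), Prr5 -0.86 (SE 0.08), Rab8a, a GTPase of apical transport, -0.77 (SE 0.08), Zfp61 -0.75 (SE 0.08), Plp2 -0.73 (SE 0.08) and Mt2, a metallothionein, -0.71 (SE 0.08). The KO change of Rab8a was -0.81, and -0.39 when its probe sets were averaged. With 32 added to each intensity, that of Prr5 moved from -0.96 to -0.59 and that of Zfp61 from -0.66 to -0.41. The genes that led the KO change had wide errors in this fit, such as Dmbt1 at -1.48 (SE 0.88) and Il1rn at 1.02 (SE 0.81), because the genotypes differed. Each array stands for a pool of separate mice. These p-values therefore set the shared change against how far the genotypes differed by day, and not against the spread between mice.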

How the data were processed

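Per the labels' protocols, total RNA of homogenised whole small intestine was extracted, pooled over the mice of a group, labelled with biotin and hybridised to Affymetrix arrays, 1 array per genotype and day. The authors deposited 1 intensity per probe set and array. The submitters' processing notes name Partek and RMA, without versions or roles. The deposited intensities ran from 3.82 to 31146, so log2 was taken without a pseudocount and no further normalization was applied.

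Of 45101 probe sets, 64 were controls, 34945 had 1 gene in the platform annotation, 932 had several and 9160 were not listed and stay unnamed. Symbols of 34741 were updated through the gene ID to GRCm38.p6. Each gene was represented by its brightest probe set over the 6 arrays. The filter kept 13042 genes, those whose mean exceeded the 40th percentile over probe sets other than controls (log2 5.28). A 2-fold difference between 2 arrays was counted and not tested. "At least" folds use the threshold intensity for the dimmer array.

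The shared day change was fitted with limma 3.58.1 in R 4.3.3 (lmFit and eBayes, two-sided, 2 residual and 3.03 prior degrees of freedom). On simulated data with 200 of 13042 genes changed, this fit recovered 5.97%, 92.5% and 98.5% of shared log2 changes of 0.5, 1 and 2. Of its 146 calls 15 were false. The simulated noise was independent between genes. In the real data Synm, with a shared change of 1.35, had a limma adjusted p of 0.183. The simulated shares therefore do not give the recovery in the real data, where a lack of calls does not show that shared changes were absent.

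Genes named follow a rule: the 14 highest and 14 lowest KO changes, the 8 highest and 8 lowest differences between the KO and L/L changes, genes 2-fold different the same way in both genotypes or opposite ways, up to 6 members of each of 63 gene lists by size of the KO change, a set of fixed genes, and the 6 highest and 6 lowest shared changes. Hes2 and Ubd were named after their values were seen, as exceptions to a count. Members and lists were chosen with earlier results of these data known. Alternatives were other choices of probe set, filter, offset, scaling, fold and model, and, added after seeing the data, day 2 as baseline.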

Additional observations from a re-analysis of the deposited data

Results flagged for a closer look

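In 8 genes the KO array of day 5 was at least 2-fold from that of day 3 while L/L differed at least 1.25-fold the other way. With 1 array per group the difference between the genotypes was not tested for any of them. The KO change exceeded the L/L change by 2.93 for Il1rn, 2.77 for Arg1, 2.47 for Krt23, 1.74 for Pmm1 and 1.67 for Ptger3, a prostaglandin E receptor at 40.3 and 83.7 in KO and 55.5 and 36.2 in L/L. The difference was -2.24 for Reg1, -1.97 for Reg3g and -1.53 for Reg3b. For Il1rn both L/L arrays lay below the intensity threshold, so neither size nor direction of its L/L change was measured. For Arg1 the L/L array of day 5 lay below it and that of day 3 little above, at 43 against 38.9, so its L/L direction is not firm either. For Ptger3 the L/L array of day 5 lay below it, so its L/L change has no exact size.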

How the results depend on the processing

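Of 61 named genes at 2-fold in KO, all 61 kept their direction under every alternative but the change of baseline and 33 stayed at 2-fold in each, while 18 were under 2-fold with the mean of all probe sets, 16 with an offset of 32 and 4 with probe sets that can bind several transcripts left out. Among those under 2-fold with an offset of 32 were Cd163 (0.86), Neurog3 (-0.75), Tk1 (-0.90), Ugt2b36 (-0.92) and Ccl28 (-0.84), and with the mean of all probe sets Cybrd1 (0.91), Myocd (0.78) and Eif2s3y (0.52). With the mean of all probe sets KO had 31 higher genes and L/L 2. With an offset of 32, KO had 31 higher and 40 lower, L/L 2 and 6, and the difference between the changes 42 and 32. With no filter L/L had 21 higher and the difference 93 lower, and with a filter at percentile 60 L/L had 3 higher and the difference 47 higher. At 1.5-fold the higher and lower counts were 385 and 333 in KO, 72 and 185 in L/L and 394 and 241 for the difference, and at 3-fold 7 and 14, 1 and 3, and 11 and 14. With day 2 as baseline, added after seeing the data, they were 121 and 107, 26 and 28, and 128 and 94. Against that baseline Xist was at 0.36, Kdm5d at -0.38, Uty at -0.05 and the B and plasma cell list at -0.03, each the reverse of its day 3 value. Centring on the median put 40.2% of the genes at 2-fold in KO on the higher side, against 48.4% as reported. limma called 0 genes throughout. No pairing by replicate was possible because each group has 1 array and thus no replicate numbers. For the same reason no array could be left out of a group. The limma fit has genotype as a term beside day, and without day 2 it compares days 3 and 5 within the genotypes. Pooled arrays hide the spread between mice, and dim probe sets have no detection call here.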
